A study of Mus musculus with 8 samples.

Results

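The genes described here encode the splicing factors and heterogeneous nuclear ribonucleoproteins (hnRNPs) of AtT-20 cells, a mouse pituitary tumour line that models the ACTH-producing corticotrope. They were chosen by symbol: SR proteins (Srsf), hnRNPs (Hnrnp), SF3A and SF3B subunits, the U2AF pair and U2surp, Sm and other snRNP proteins (Snrp), pre-mRNA processing factors (Prpf), RNA-binding motif proteins (Rbm), the regulators Tra2, Ptbp, Celf, Mbnl and Khdrbs, and the Clk kinases. The rule found 113 of the 12193 gene loci measured, and all 113 passed the filter on low values. Of these, 112 were protein-coding and 1, Snrpert, was a processed pseudogene.

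Introns are removed by the spliceosome, which is built on pre-mRNA from small nuclear ribonucleoproteins (snRNPs). Sm proteins form a ring around the snRNA of most snRNPs, U2AF and the U2 snRNP with its SF3A and SF3B complexes recognise the 3' splice site and branch site, and PRPF proteins join and remodel the complex. SR proteins bind exons and generally promote their inclusion, whereas hnRNPs coat nascent RNA and often repress it. CLK kinases phosphorylate SR proteins. Many SR, TRA2 and hnRNP genes limit their own expression through poison exons, cassette exons with an early stop codon whose inclusion sends the mRNA to nonsense-mediated decay (NMD).

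Total RNA was sequenced from 8 libraries in 4 groups of 2, to follow the transcriptional effect of the epidermal growth factor receptor (EGFR) in these cells. A control line labelled Neo received water for 3 h, and a line labelled EGFR received water for 3 h, EGF for 3 h or EGF for 18 h. All lines were grown in the same serum-containing medium. The labels do not say whether either line is a clone, which species the introduced receptor came from, or whether the replicates were separate cultures, so the p-values reflect the scatter between libraries, which may be technical. No Neo library received EGF and the water libraries are all of 3 h, so that 18 h of EGF and 18 h in culture cannot be told apart.

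Values were deposited as FPKM, fragments scaled by transcript length and by library depth, which allows levels to be compared between genes per length. Fold changes are differences of log2(FPKM + 1), tested with limma across all 10874 genes that passed the filter and called at a Benjamini-Hochberg adjusted p below 0.05. Libraries of the same group correlated at r = 0.985 to 0.987 across genes, which are not independent replicates, and libraries of different groups at 0.973 to 0.986. The ranges overlapped: Neo replicate 1 and EGFR-line water replicate 2 correlated at 0.986, above the 2 EGFR-line water libraries at 0.985. Of 6 corticotrope markers 5 had values, including Pomc and Tbx19, and their summed level was 7443 to 9441 FPKM per library, whereas Crhr1 had no row. None of the listed markers of other pituitary lineages, fibroblasts, endothelium or blood had a row. Small RNA genes took 29.1% to 39.0% of the summed FPKM, highest in Neo replicate 1 and lowest in EGF 3 h replicate 2.

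The members were abundant transcripts. Their mean level over the 8 libraries ran from 3.10 FPKM for Rbm20 to 576 FPKM for Hnrnpk, with a median of 44.8 FPKM, and 22 of 113 lay above 100 FPKM. Hnrnpk, Hnrnpab and Rbm3 were the most abundant. Ptbp2 and Snrpn, which belong to the same families, were not analysed here. In 25 members, including Srsf2, Srsf3, U2af1, Ptbp1, Hnrnpa1, Hnrnpk and 5 Sm genes, at least 20% of the transcript is near-identical to another locus or overlaps the exons of another gene, so that reads may have been split and their values are uncertain.

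Changes among these genes were small, and their direction differed between the times of EGF treatment. At 3 h of EGF, 17 of 113 members were higher and 9 were lower than in water, where 11.8% and 19.7% of all tested genes were called higher and lower (31.5% in either direction). At 18 h, 8 were higher and 30 lower than in the same water libraries, against 13.2% and 18.7% of all genes (31.9% in either direction). Between 18 h and 3 h of EGF, 4 were higher and 44 lower, against 17.7% and 16% of all genes (33.7% in either direction). In that last comparison 38.9% of members were called lower.

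The median log2 fold change of the members was 0.03 at 3 h of EGF, where that of all tested genes was -0.04. At 18 h it was -0.08 against -0.03, and between 18 h and 3 h it was -0.10 against 0.01. The called fold changes ran from -0.51 to 0.42 on the log2 scale over these comparisons, and no called member changed 2-fold. The comparisons with water share the water libraries, and each EGF group also enters the comparison of the 2 times. In bulk RNA a change in the number of cells carrying a transcript and in its level per cell cannot be told apart.

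**Figure D1:**
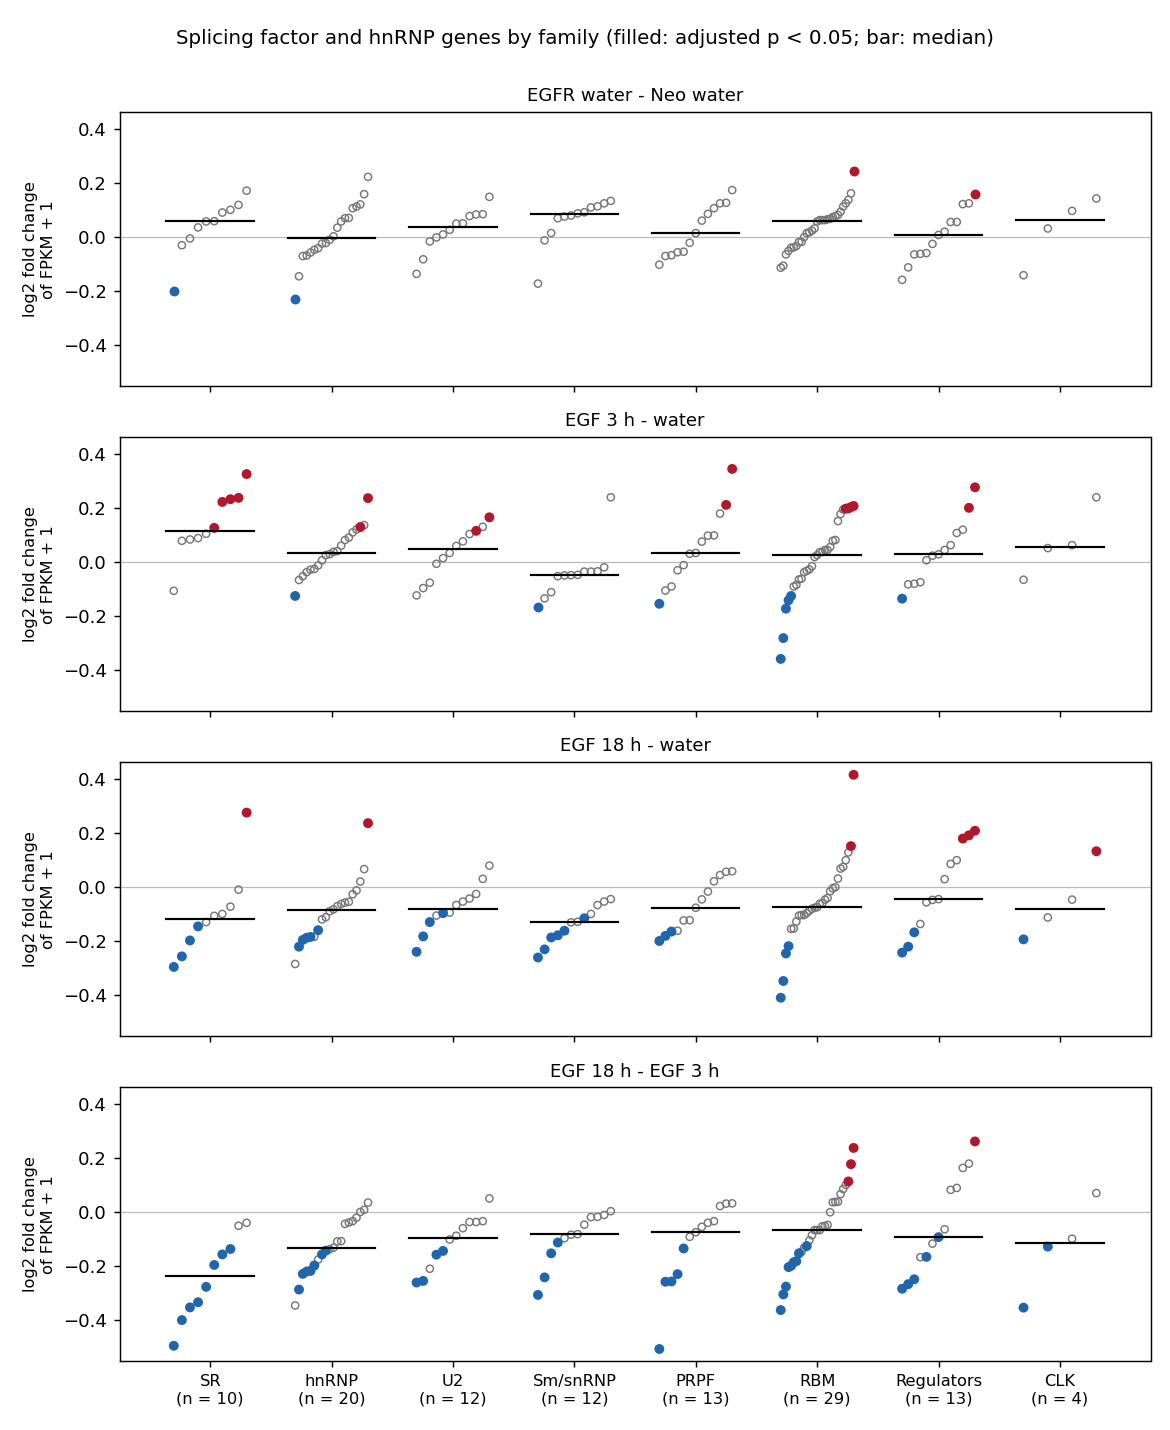
Log2 fold change of FPKM + 1 (vertical axis) for each of the 113 members, grouped by family along the horizontal axis, in the comparison of the lines and the 3 EGF comparisons. Each circle is a gene, filled where the limma adjusted p was below 0.05, and bars are family medians. The SR median moved from 0.12 at 3 h to -0.12 at 18 h, and all 10 SR genes lay below 0 between 18 h and 3 h.

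The count at 18 h depended on scaling and on single libraries. For the EGF comparisons the share of all tested genes called under each alternative setting is not given, here or below. These counts are therefore not set against a background and do not show a shift particular to the members. After scaling every library to a common FPKM sum, 5 members were higher and 3 lower at 18 h than in water, and 1 was higher and 31 lower at 18 h than at 3 h. Scaling the protein-coding genes alone to a common sum, an alternative added after the data were seen, gave 12 higher and 28 lower at 18 h against water and 41 higher and 4 lower at 3 h. Median-ratio scaling gave 27 higher and 5 lower at 3 h and 10 higher and 27 lower at 18 h, and quantile normalization gave 28 and 6 and then 10 and 20. At 3 h the counts fell to 6 and 1 without water replicate 1, 5 and 2 without water replicate 2 and 7 and 4 without EGF 3 h replicate 1. The 18 h decreases numbered 11 and 13 without water replicate 1 or 2 and 12 without EGF 18 h replicate 1, and the decreases between the times numbered 22 and 28 without EGF 18 h replicate 1 or 2.

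Before EGF, the lines differed little in these genes. In water, 2 of 113 members were higher and 2 lower in the EGFR line than in the Neo line, where 3.11% and 2.9% of all tested genes were called higher and lower (6.01% in either direction). The median log2 fold change was 0.05 for the members and 0.01 for all genes.

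Rbm39, an SR-related protein that works with U2AF at the 3' splice site, stood at 125 and 127 FPKM in the Neo libraries and at 149 and 149.8 FPKM in the EGFR-line water libraries. The groups did not overlap, and the mean rose by 18.5% (log2 fold change 0.24 ± 0.03 SE, limma adjusted p = 0.00669). Mbnl1, a muscleblind regulator of tissue-specific exons, rose from 65.3 and 62.8 to 71.6 and 71.5 FPKM (limma adjusted p = 0.0487). Hnrnpd, also known as AUF1 for its binding to AU-rich elements, fell from 31.5 and 29.2 to 25.6 and 26.0 FPKM (limma adjusted p = 0.0401). Srsf9 fell from 42.1 and 39.9 to 35.6 and 35.5 FPKM (limma adjusted p = 0.0468). None of these calls held in every setting: Rbm39 was lost without either EGFR-line water library (limma adjusted p = 0.0699 and 0.0711), and Hnrnpd, Mbnl1 and Srsf9 without any 1 of the 4 water libraries, with adjusted p over all settings that ended the call of 0.0534 to 0.188, 0.0514 to 0.211 and 0.0622 to 0.202.

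Of the 8 families, the SR proteins had the highest share of calls between the times, 80% against 33.7% of all tested genes. At 3 h of EGF, 5 of 10 SR genes were higher than in water and 0 lower, namely Srsf9, Srsf7, Srsf2, Srsf10 and Srsf6, and the fold change was positive in 9 of 10. At 18 h, 1 was higher, Srsf9, and 4 were lower, Srsf3, Srsf7, Srsf1 and Srsf4. The share called was 50% at each time, against 31.5% and 31.9% of all genes. Between 18 h and 3 h, 8 of 10 were lower and all 10 fold changes were negative, with a median of -0.24. Srsf4, Srsf6 and Srsf11 are named with their family, after their values were seen.

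Srsf7 was the only member called in opposite directions at the 2 times. This SR protein, which carries a zinc knuckle beside its RNA recognition motif, is encoded at chr17:80200089-80207305, minus strand of mm10. It stood at 63.3 and 68.8 FPKM in the Neo libraries, 70.8 and 69.9 FPKM in EGFR-line water, 84.5 and 81.8 FPKM at 3 h of EGF and 58.4 and 59.1 FPKM at 18 h. The 3 h libraries were above all others and the 18 h libraries below all others. It rose by 18.2% at 3 h (log2 fold change 0.24 ± 0.04 SE, limma adjusted p = 0.00741) and fell by 16.5% at 18 h (-0.26 ± 0.04, adjusted p = 0.00439). Between the times it fell by 29.4% (-0.49 ± 0.04, limma adjusted p = 0.000501). The 3 h call was lost without water replicate 2 (limma adjusted p = 0.0507) and the 18 h call after scaling to a common FPKM sum (0.0876).

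Srsf2, also called SC35 and long used as a marker of nuclear speckles, stood at 156 and 153 FPKM in water, 184 and 179 FPKM at 3 h and 143 and 145 FPKM at 18 h. The 3 h libraries were above all others, and it rose by 17.7% at 3 h (log2 fold change 0.23 ± 0.04 SE, limma adjusted p = 0.00354) and fell by 20.7% from 3 h to 18 h (-0.33 ± 0.04, adjusted p = 0.000934). Against water its 18 h change of -0.10 ± 0.04 did not pass the threshold (limma adjusted p = 0.0647). Srsf10, which acts as a general repressor when dephosphorylated, followed a like course with more spread, at 43.1 and 44.0 FPKM in water, 53.6 and 48.5 FPKM at 3 h and 39.4 and 40.1 FPKM at 18 h. It rose at 3 h (0.22 ± 0.06, limma adjusted p = 0.0217) and fell between the times (-0.35 ± 0.06, adjusted p = 0.00388). The 3 h call for Srsf10 was lost without water replicate 1 or 2 or EGF 3 h replicate 1 (limma adjusted p = 0.0769 to 0.104).

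Srsf3 and Srsf1 were not called at 3 h and fell later. Srsf3, the smallest SR protein, lies at chr17:29032673-29043366, plus strand of mm10 and stood at 205 and 205 FPKM in water, 226 and 214 FPKM at 3 h and 163 and 170.5 FPKM at 18 h. The 18 h libraries were below all 6 others. It fell by 18.5% at 18 h against water (-0.29 ± 0.07 SE, limma adjusted p = 0.017) and by 24.3% against 3 h (-0.40 ± 0.07, adjusted p = 0.00558). Srsf1, the founding SR protein and a known oncoprotein, was the most abundant of the family at 328 and 319.5 FPKM in water, 342 and 342 FPKM at 3 h and 283 and 282 FPKM at 18 h. It fell by 12.8% against water (limma adjusted p = 0.0164) and by 17.5% against 3 h (adjusted p = 0.0048), and its Neo libraries, at 274 and 301 FPKM, overlapped those of 18 h. The calls against water were lost under common-sum and quantile scaling, without either water library or EGF 18 h replicate 1, and for Srsf1 also without EGF 18 h replicate 2 (limma adjusted p = 0.0722 to 0.117 for Srsf3 and 0.0592 to 0.223 for Srsf1), whereas those against 3 h were kept in all 18 settings tried.

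Srsf9 went another way. An SR protein with a short RS domain, it stood at 35.6 and 35.5 FPKM in water, 43.0 and 46.7 FPKM at 3 h and 43.4 and 43.1 FPKM at 18 h, so that both EGF groups lay above water. It rose by 26.2% at 3 h (0.33 ± 0.04 SE, limma adjusted p = 0.00266) and by 21.7% at 18 h (0.28 ± 0.04, adjusted p = 0.00374). Between the times the change of -0.05 ± 0.04 did not pass (adjusted p = 0.425). Both calls against water were kept in all 18 settings, and the Neo libraries, at 42.1 and 39.9 FPKM, lay between water and EGF. Srsf5, known as an immediate early gene of regenerating liver, stood at 157 and 159.6 FPKM in water, 170.3 and 166 at 3 h, and 146 and 148 at 18 h and was called only between the times (-0.20 ± 0.04, limma adjusted p = 0.00942), a call lost under common-sum scaling and without EGF 18 h replicate 1 (0.0519 to 0.0559).

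**Figure D2:**
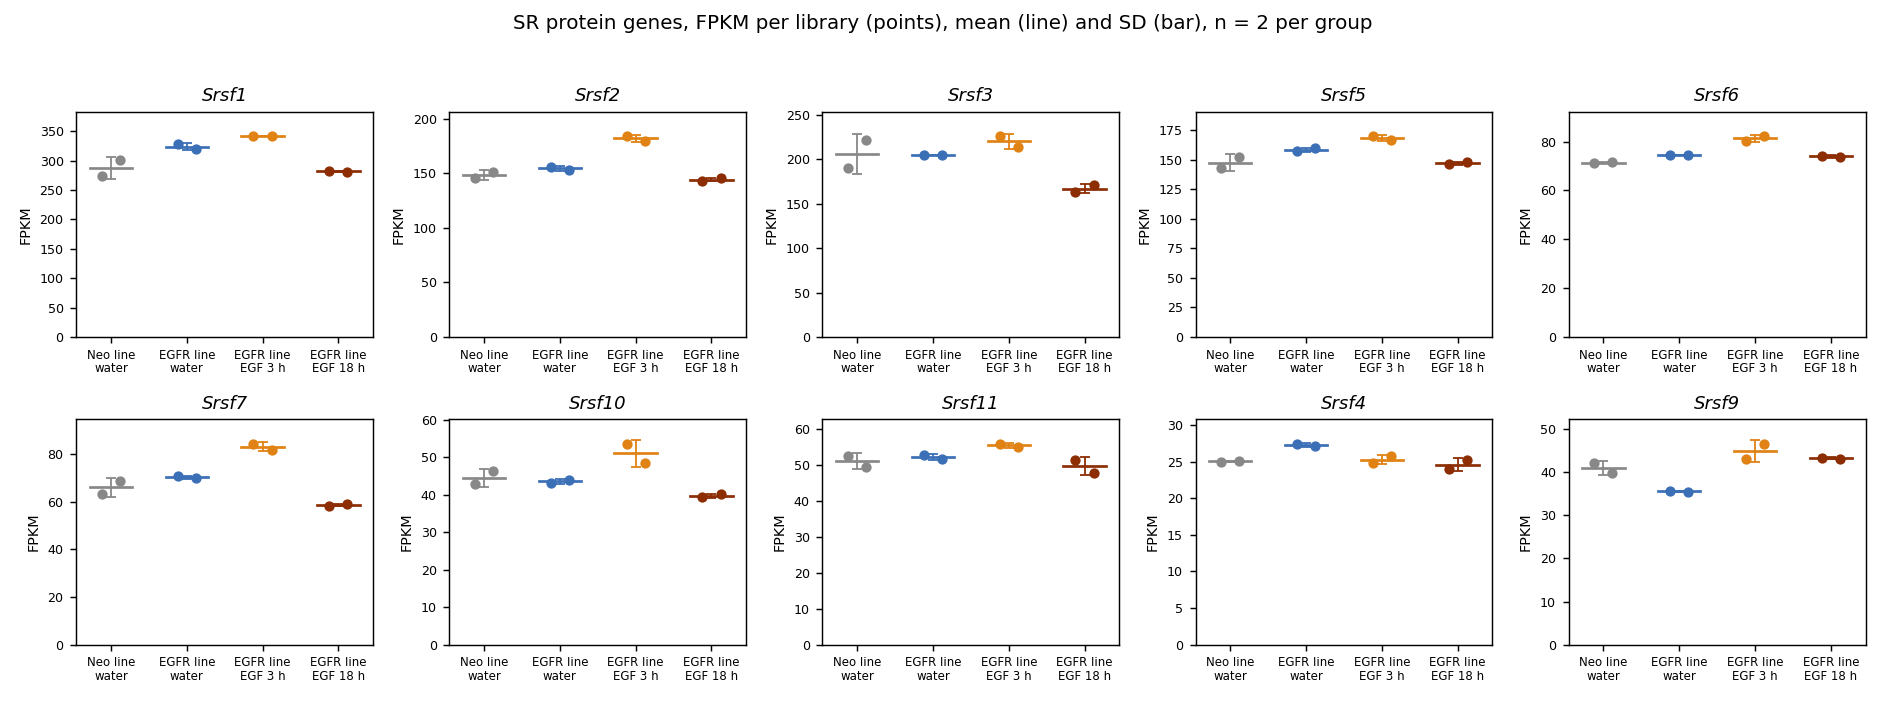
FPKM of the 10 SR genes (vertical axes, from 0) in the 4 groups, with a point for each library, a line at the mean and bars of 1 SD (n = 2). In Srsf7, Srsf2 and Srsf10 the EGF 3 h points lie above water and the 18 h points below it, whereas in Srsf9 both EGF groups lie above water.

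Across the alternatives the SR count between 18 h and 3 h stayed at 6 to 8 lower and 0 higher. At 3 h the count of SR genes called higher was 5 in most settings, 3 without water replicate 1, 2 without water replicate 2, 4 without EGF 3 h replicate 1, and 8 with protein-coding genes scaled to a common sum. At 18 h the SR genes called lower numbered 0 under common-sum scaling, 2 under quantile normalization and 7 with only the 2 groups in the fit, against 4 as reported. The number also fell without water replicate 1, water replicate 2 or EGF 18 h replicate 1. The share of all tested genes in each setting is not given, so these counts do not show a trait particular to the SR genes.

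FPKM was given per gene locus and does not separate productive from poison-exon transcripts, so the levels above may hold both. In the GENCODE M21 annotation (GRCm38, the mm10 assembly), 59 of 113 members have at least 1 transcript of the NMD class, among them 9 of 10 SR genes. In 23 members the stop codon lies in an exon of an NMD transcript that overlaps no exon of a protein-coding transcript. Of these, 5 are SR genes, and other transcript classes were not checked for the exon. The stretch from the start of that exon to its stop codon is printed for the SR and TRA2 genes the time course turns on, with the stop codon in capitals, to show which part of the locus is left unresolved. The exons lie at chr17:29039454-29039909, plus strand in Srsf3, at chr17:80204622-80205081, minus strand in Srsf7, at chr5:115328347-115328704, plus strand in Srsf9, at chr6:49252803-49253108, minus strand in Tra2a and at chr16:22258986-22259261, minus strand in Tra2b.
Srsf3: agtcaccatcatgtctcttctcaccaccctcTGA
Srsf7: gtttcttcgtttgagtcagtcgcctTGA
Srsf9: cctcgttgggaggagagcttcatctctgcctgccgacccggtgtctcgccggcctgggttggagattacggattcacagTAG
Tra2a: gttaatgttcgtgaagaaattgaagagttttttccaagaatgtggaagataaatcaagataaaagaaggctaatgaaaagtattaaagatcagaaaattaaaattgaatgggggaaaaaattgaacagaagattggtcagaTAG
Tra2b: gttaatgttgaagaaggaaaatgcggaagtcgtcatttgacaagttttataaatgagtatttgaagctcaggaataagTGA

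The exons differ in how far the stop lies from the start of the exon, which is not its distance along the reading frame. The stop lies 28 bases into the Srsf7 exon of 460 bases and 34 bases into the Srsf3 exon of 456 bases, whereas it lies 144 bases into the Tra2a exon of 306 bases. The Tra2a and Tra2b exons are each exon 2 of their NMD transcript. Inclusion of these exons was not measured.

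Of the genes for TRA2 proteins, SR-like activators of exons, only Tra2b was called lower at 18 h than in water. Tra2b stood at 87.8 and 83.5 FPKM in water, 92.7 and 86.4 FPKM at 3 h and 72.7 and 74.0 FPKM at 18 h, with the 18 h libraries below all others. It fell by 14.3% against water (-0.22 ± 0.05 SE, limma adjusted p = 0.0175) and by 18.1% against 3 h (-0.28 ± 0.05, adjusted p = 0.00705). Tra2a, at 45.1 and 45.5 FPKM in water, 46.9 and 45.7 at 3 h, and 42.1 and 40.2 at 18 h, was called only between the times (-0.17 ± 0.05, limma adjusted p = 0.0363). The Tra2b call against water was lost under common-sum and quantile scaling and without water replicate 1 or either EGF 18 h library (limma adjusted p = 0.0591 to 0.166), and the Tra2a call without any 1 of the 6 EGFR-line libraries (0.0569 to 0.17 over all settings that ended it).

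Of the 4 CLK kinases, 0 were called at 3 h, and 2 were called at 18 h and between the times, a number too small to set against the shares of all genes (31.5%, 31.9% and 33.7%). Clk1 fell from 28.4 and 28.3 FPKM in water to 24.9 and 24.4 FPKM at 18 h, by 12.9% (-0.19 ± 0.03 SE, limma adjusted p = 0.00326), a call lost under common-sum scaling (0.111). Clk4 stood at 23.1 and 21.6 FPKM in water, 28.3 and 25.0 FPKM at 3 h and 21.8 and 19.4 FPKM at 18 h and fell between the times (-0.35 ± 0.09, limma adjusted p = 0.0259). Its replicates spread more than those of Clk1, and its call was lost without EGF 3 h replicate 1 or EGF 18 h replicate 2 (0.0694 to 0.136 over all settings that ended it). Clk3 rose from 11.5 and 11.4 to 13.1 and 12.2 FPKM at 18 h (limma adjusted p = 0.0467) and lost its call without any 1 of 7 libraries, all but EGF 18 h replicate 2 (0.0512 to 0.258 over all settings that ended it).

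Among the 20 hnRNP genes, 2 were higher and 1 lower at 3 h of EGF, and 1 was higher and 5 lower at 18 h, with 17 of 20 fold changes negative. Between 18 h and 3 h, 7 were lower and 0 higher. In either direction, 15% of hnRNP genes were called at 3 h, where 31.5% of all tested genes were. At 18 h the shares were 30% and 31.9%, and between the times 35% and 33.7%. By direction, 25% were lower at 18 h and 35% between the times, against 18.7% and 16% of all genes. Called higher were 5% and 0%, against 13.2% and 17.7%. Hnrnpdl, a paralog of Hnrnpd known for a poison-exon loop of its own, stood at 91.9 and 87.0 FPKM in water, 96.2 and 94.3 FPKM at 3 h and 76.9 and 79.0 FPKM at 18 h. The 18 h libraries were below all others, and it fell by 12.8% against water (limma adjusted p = 0.0157) and by 18.2% against 3 h (-0.29 ± 0.04 SE, adjusted p = 0.00396).

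Hnrnpd moved the other way to its paralog. It stood at 25.6 and 26.0 FPKM in water, 31.2 and 29.9 FPKM at 3 h and 31.5 and 29.6 FPKM at 18 h. Both EGF groups were above water and level with the Neo libraries, with a rise of 18.5% at 3 h (0.24 ± 0.05 SE, limma adjusted p = 0.0111) and of 18.6% at 18 h (0.24 ± 0.05, adjusted p = 0.00954). Like Srsf9, it had been lower in the EGFR line than in the Neo line in water. That comparison and these share the same water libraries. The 3 h call was lost without water replicate 1 or 2 or EGF 3 h replicate 1 (limma adjusted p = 0.0525 to 0.0642) and the 18 h call without water replicate 1 or EGF 18 h replicate 1 (0.0592 to 0.0642).

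Of the abundant hnRNPs, Hnrnpab, a transcription and splicing regulator, stood at 527 and 524 FPKM in water, 539 and 541 FPKM at 3 h and 465 and 476 FPKM at 18 h and fell by 12.8% between the times (-0.20 ± 0.03 SE, limma adjusted p = 0.00457). Hnrnpa1, the classic antagonist of SR proteins, stood at 284 and 284 FPKM in water, 292 and 289 at 3 h, and 244 and 255 at 18 h and fell by 14.0% (-0.22 ± 0.05, adjusted p = 0.013). Both were also lower at 18 h than in water (limma adjusted p = 0.00961 and 0.0223). Hnrnpa2b1 and Hnrnpk were called in no comparison. Hnrnpa2b1 stood at 272 and 275 FPKM in water, 297 and 261 at 3 h, and 254 and 252 at 18 h, and the 95% interval of its log2 change between the times was -0.29 to 0.02. Hnrnpk, a KH-domain protein, stood at 597 and 586 FPKM in water, 561 and 602 at 3 h, and 562 and 571 at 18 h, and its 3 h change of -0.03 ± 0.04 turned to 0.09 under quantile normalization (limma adjusted p = 0.0376).

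The 5 decreases of hnRNPs at 18 h against water were lost under common-sum scaling, where 0 of 20 were lower, as also without water replicate 1 or EGF 18 h replicate 1, whereas Hnrnpd kept its higher call under common-sum scaling. The share of all tested genes in each setting is not given beside these counts. The number called lower was 2 under quantile normalization and 9 with only the 2 groups in the fit, and it also fell without water replicate 2. Between the times it was 3 without EGF 3 h replicate 1, 2 and 4 without EGF 18 h replicate 1 or 2, and 3 under common-sum scaling. The calls against water were lost without water replicate 1 or EGF 18 h replicate 1 for Hnrnpdl, Hnrnpab and Hnrnpa1, and without water replicate 2 for Hnrnpab and Hnrnpa1 (limma adjusted p = 0.0556 to 0.206, 0.0637 to 0.232 and 0.0952 to 0.255 over all settings that ended them). Between the times, the Hnrnpa1 call was lost under common-sum scaling and without EGF 3 h replicate 1 or EGF 18 h replicate 1 (0.053 to 0.0804).

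Of the 12 Sm and snRNP loci, 6 were called lower at 18 h. The 12 include the processed pseudogene Snrpert, which was not called. All of its transcript is near-identical to Snrpe, so reads may be shared and its fold change is not separate from that of Snrpe. At 3 h, 1 of 12, Snrpd2, was lower and 0 higher, and at 18 h 6 of 12 were lower, 0 higher, and all 12 fold changes were negative, with a median of -0.13 against -0.03 for all tested genes. In either direction, 8.33% were called at 3 h, 50% at 18 h and 33.3% between the times. The shares of all genes were 31.5%, 31.9% and 33.7%. The calls of the last 2 comparisons were all lower, where 18.7% and 16% of all genes were lower. The 6 were Snrpg, Snrpd3, Snrpd1, Snrpd2, Snrpf and Snrpe, and each encodes a subunit of the heptameric Sm ring, whose seventh subunit Snrpb was not called. Snrpd3, Snrpd1, Snrpf and Snrpe were named after their values were seen.

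Snrpg stood at 117 and 118 FPKM in water, 112 and 120.1 FPKM at 3 h and 97.9 and 97.8 FPKM at 18 h, with the 18 h libraries below all others. It fell by 16.6% against water (-0.26 ± 0.04 SE, limma adjusted p = 0.00257) and by 15.6% against 3 h (-0.24 ± 0.04, adjusted p = 0.0043), and kept both calls in all 18 settings. Snrpd2 stood at 123 and 122 FPKM in water, 104 and 114 at 3 h, and 107 and 109 at 18 h and was lower than water by like amounts at both times (-0.17, limma adjusted p = 0.0246 at 3 h, and -0.18, adjusted p = 0.0185 at 18 h). Snrpd3 aside, these 6 genes have near-identical copies or share exons with other genes. The counts that follow are given without the share of all tested genes in the same setting. The count at 18 h was 1 of 12 under common-sum scaling and without water replicate 1, 2 without EGF 18 h replicate 1 and 3 without replicate 2 of either group, and the Snrpd2 calls were lost under it and without either water library or replicate 1 of the EGF group compared (limma adjusted p = 0.0564 to 0.444 at 3 h and 0.0647 to 0.2 at 18 h, which was also lost without EGF 18 h replicate 2).

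In the branch site and 3' splice site machinery, 2 of 12 genes were higher at 3 h, and 4 of 12 lower at 18 h as well as between the times. In either direction the share called was 16.7% and then 33.3% at both later comparisons, against 31.5%, 31.9% and 33.7% of all genes. By direction, 16.7% were higher at 3 h against 11.8% of all genes. The 33.3% were all lower, where 18.7% and 16% of all genes were lower. Sf3a3, a subunit of the SF3A complex of U2 snRNP, stood at 78.6 and 79.0 FPKM in water, 79.4 and 79.8 FPKM at 3 h and 64.9 and 68.4 FPKM at 18 h. The 18 h libraries were below all 6 others, and it fell by 15.4% against water (-0.24 ± 0.03 SE, limma adjusted p = 0.00198) and by 16.3% against 3 h (-0.25 ± 0.03, adjusted p = 0.00215). The call against water was lost under common-sum scaling (0.0568).

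U2af1, which reads the AG at the end of the intron, stood at 53.1 and 52.8 FPKM in water, 57.0 and 62.1 FPKM at 3 h and 48.3 and 50.8 FPKM at 18 h. It rose at 3 h (0.17 ± 0.05 SE, limma adjusted p = 0.0446) and fell between the times (-0.26 ± 0.05, adjusted p = 0.00876). Sf3b1, the SF3B subunit that holds the branch site, stood at 94.4 and 96.2 FPKM in water, 98.2 and 103 at 3 h, and 92.2 and 89.8 at 18 h and fell between the times (-0.14 ± 0.04, limma adjusted p = 0.0193). The 3 h call of U2af1 was lost in 9 of 18 settings: without the filter, under common-sum scaling, with only the 2 groups in the fit, without the variance trend, and without either water library, EGF 3 h replicate 2 or either EGF 18 h library (limma adjusted p = 0.054 to 0.158). Its call between the times was lost without EGF 18 h replicate 1 (0.0553), and that of Sf3b1 under common-sum scaling, with only the 2 groups, and without EGF 3 h replicate 2 or either EGF 18 h library (0.0516 to 0.107).

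Among 13 PRPF genes, 2 were higher and 1 lower at 3 h, 3 were lower at 18 h, and 5 were lower between the times. In either direction the share called was 23.1% at each time, below the 31.5% and 31.9% of all genes, and 38.5% against 33.7% between the times. The share called lower was 23.1% at 18 h and 38.5% between the times, against 18.7% and 16% of all genes. Prpf39, a U1 snRNP-associated factor, had the largest called increase at 3 h and the largest called decrease between the times of all 113 members. It stood at 4.77 and 5.45 FPKM in the Neo libraries, 5.10 and 4.66 FPKM in water, 6.89 and 6.05 FPKM at 3 h and 4.34 and 4.17 FPKM at 18 h. The 3 h libraries were above all others, and it rose by 32.7% (0.34 ± 0.08 SE, limma adjusted p = 0.0169) and then fell by 34.2% (-0.51 ± 0.08, adjusted p = 0.00384). Prpf38b stood at 18.4 and 19.2 FPKM in water, 22.1 and 21.8 at 3 h, and 18.6 and 17.8 at 18 h, with a like course (limma adjusted p = 0.00996 at 3 h and 0.00447 between the times). The 3 h call of Prpf39 was lost without water replicate 2 or EGF 3 h replicate 1 (limma adjusted p = 0.0932 to 0.0937), and that of Prpf38b without water replicate 1 or EGF 3 h replicate 1 (0.0528 to 0.0672). Prpf18, a second-step factor, was lower at 3 h (-0.15 ± 0.05, limma adjusted p = 0.04), a call lost in most settings, among them without any 1 of the 8 libraries except EGF 3 h replicate 2 (0.0516 to 0.491).

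The 29 RBM genes share a domain rather than a step of splicing, and 4 were higher and 5 lower at 3 h, 2 and 4 at 18 h, and 3 and 9 between the times. The share called was 31% at 3 h and 20.7% at 18 h, at or below the 31.5% and 31.9% of all tested genes. Between the times it was 41.4% against 33.7%, with 31% lower and 10.3% higher against 16% and 17.7%. Rbm38, known as a p53 target that regulates splicing and stability of cell cycle mRNAs, was lower at both times. It stood at 10.9 and 10.4 FPKM in the Neo libraries, 9.97 and 10.7 FPKM in water, 7.53 and 8.18 FPKM at 3 h and 7.85 and 7.25 FPKM at 18 h. Both EGF groups were below both water groups, and it fell by 24.1% at 3 h (-0.36 ± 0.06 SE, limma adjusted p = 0.00541) and by 27.1% at 18 h (-0.41 ± 0.06, adjusted p = 0.00233), calls kept in all 18 settings.

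Rbm48, a factor of the minor spliceosome, stood at 11.8 and 10.7 FPKM in water, 9.39 and 8.79 FPKM at 3 h and 8.70 and 8.58 FPKM at 18 h. It too fell at both times (-0.28 ± 0.06 SE, limma adjusted p = 0.0147 at 3 h, and -0.35 ± 0.06, adjusted p = 0.00565 at 18 h). The 18 h call was kept in all 18 settings, and the 3 h call was lost under common-sum scaling and without water replicate 1 or EGF 3 h replicate 2 (0.0526 to 0.0843). Rbm39 fell from 149 and 149.8 FPKM in water to 125 and 127 FPKM at 18 h (-0.24 ± 0.03, limma adjusted p = 0.000882), which were the levels of the Neo libraries, a call lost under common-sum scaling (0.0514).

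Rbm12 stood at 19.1 and 21.1 FPKM in water, 23.8 and 23.0 FPKM at 3 h and 17.8 and 18.1 FPKM at 18 h, and its exons overlap those of another gene. It rose at 3 h (0.21 ± 0.05 SE, limma adjusted p = 0.0251) and fell between the times (-0.36 ± 0.05, adjusted p = 0.00326), the 3 h call being lost without water replicate 1 or EGF 3 h replicate 1 (0.0528 to 0.13 over all settings that ended it). Rbm10, a regulator of exon skipping, fell from 33.5 and 33.3 to 28.9 and 30.2 FPKM at 3 h (limma adjusted p = 0.00893) and stood at 32.0 and 32.0 FPKM at 18 h. The paralogs Rbm4 and Rbm4b, neighbours on chromosome 19, were both lower at 3 h. Rbm4 stood at 31.0 and 30.6 FPKM from 34.0 and 34.1 FPKM (limma adjusted p = 0.0131). Rbm4b stood at 13.5 and 12.8 FPKM from 14.3 and 14.6 FPKM (limma adjusted p = 0.043). Part of the Rbm4 transcript is near-identical to Rbm4b, so both genes may share reads and their decreases may not be separate. Their exons overlap other genes, and these small decreases were lost without either water library, under common-sum scaling and, for Rbm4b, without any 1 of the 8 libraries (limma adjusted p over all settings that ended the call 0.0524 to 0.351 for Rbm10, 0.0695 to 0.469 for Rbm4 and 0.0505 to 0.649 for Rbm4b).

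The abundant Rbm3, a cold-inducible protein, was called in no comparison and stood at 324 and 322 FPKM in water, 338 and 317 FPKM at 3 h and 290.3 and 301 FPKM at 18 h. At the other end of the range, Rbm20, the regulator of titin splicing in muscle, stood at 2.67 and 2.65 FPKM in water, 3.05 and 3.23 FPKM at 3 h and 4.02 and 3.75 FPKM at 18 h. It had the largest called increase at 18 h (0.42 ± 0.06 SE, limma adjusted p = 0.00188) and was also higher at 18 h than at 3 h (0.24 ± 0.06, adjusted p = 0.0185). It was named after its values were seen, and at this level a log2(FPKM + 1) change understates the change in FPKM, which was 46.1% against water. Rbm43 rose from 13.5 and 13.2 to 14.4 and 15.6 FPKM at 18 h (limma adjusted p = 0.0403), a call lost without any 1 of 7 libraries, all but EGF 18 h replicate 1 (0.0513 to 0.206 over all settings that ended it).

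Among the regulators of tissue-specific splicing, 13 TRA2, PTBP, CELF, MBNL and KHDRBS genes, 2 were higher and 1 lower at 3 h, and 3 were higher and 3 lower at 18 h. The share called was 23.1% at 3 h and 46.2% at 18 h, against 31.5% and 31.9% of all genes. Of the 13, 1 was higher and 5 lower between the times, or 46.2% against 33.7%. By direction 7.69% were higher and 38.5% lower, against 17.7% and 16% of all genes. Celf3, a CELF protein of the nervous system, stood at 70.3 and 71.9 FPKM in water, 68.2 and 66.1 FPKM at 3 h and 82.3 and 79.2 FPKM at 18 h. The 18 h libraries were above all 6 others, and it rose by 13.5% against water (0.18 ± 0.04 SE, limma adjusted p = 0.0109) and by 20.2% against 3 h (0.26 ± 0.04, adjusted p = 0.00297).

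Khdrbs3, also called SLM2 and a regulator of neurexin splicing, stood at 43.6 and 43.5 FPKM in water, 46.9 and 47.2 FPKM at 3 h and 49.4 and 50.4 FPKM at 18 h, and rose at 18 h (0.19 ± 0.04 SE, limma adjusted p = 0.00749). Mbnl2, a muscleblind protein, rose from 13.1 and 11.9 to 15.0 and 14.2 FPKM (limma adjusted p = 0.0325). Celf4, another CELF protein of neurons, fell from 6.21 and 6.10 to 5.46 and 4.66 FPKM (limma adjusted p = 0.033). The neuronal members thus did not move together. Celf3 lost its call against water without water replicate 1 or EGF 18 h replicate 1 (limma adjusted p = 0.0764 to 0.0779), Khdrbs3 under common-sum scaling (0.0618), Mbnl2 without the filter, water replicate 2 or either EGF 18 h library (0.0646 to 0.171), and Celf4 in 7 of 18 settings, without the filter, under median-ratio and common-sum scaling, with only the 2 groups in the fit, and without either water library or EGF 18 h replicate 2 (0.0558 to 0.147).

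Ptbp1, the polypyrimidine tract binding protein that represses neuronal exons, rose early. It stood at 132 and 124 FPKM in the Neo libraries, 118 and 126 FPKM in water, 149 and 148 FPKM at 3 h and 130.1 and 120.0 FPKM at 18 h. The 3 h libraries were above all 6 others, and it rose by 21.3% (0.28 ± 0.05 SE, limma adjusted p = 0.00842) and fell by 15.8% between the times (-0.25 ± 0.05, adjusted p = 0.0114). The 3 h call was lost without water replicate 1 (0.0576) and the later one without EGF 18 h replicate 2 (0.064). Mbnl1, higher in the EGFR line than in the Neo line in water, was lower at 3 h of EGF at 64.2 and 66.0 FPKM (-0.14 ± 0.04, limma adjusted p = 0.0281), a call lost under all 4 rescalings and without either water library or EGF 3 h replicate 1 (0.0567 to 0.549).

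**Figure D3:**
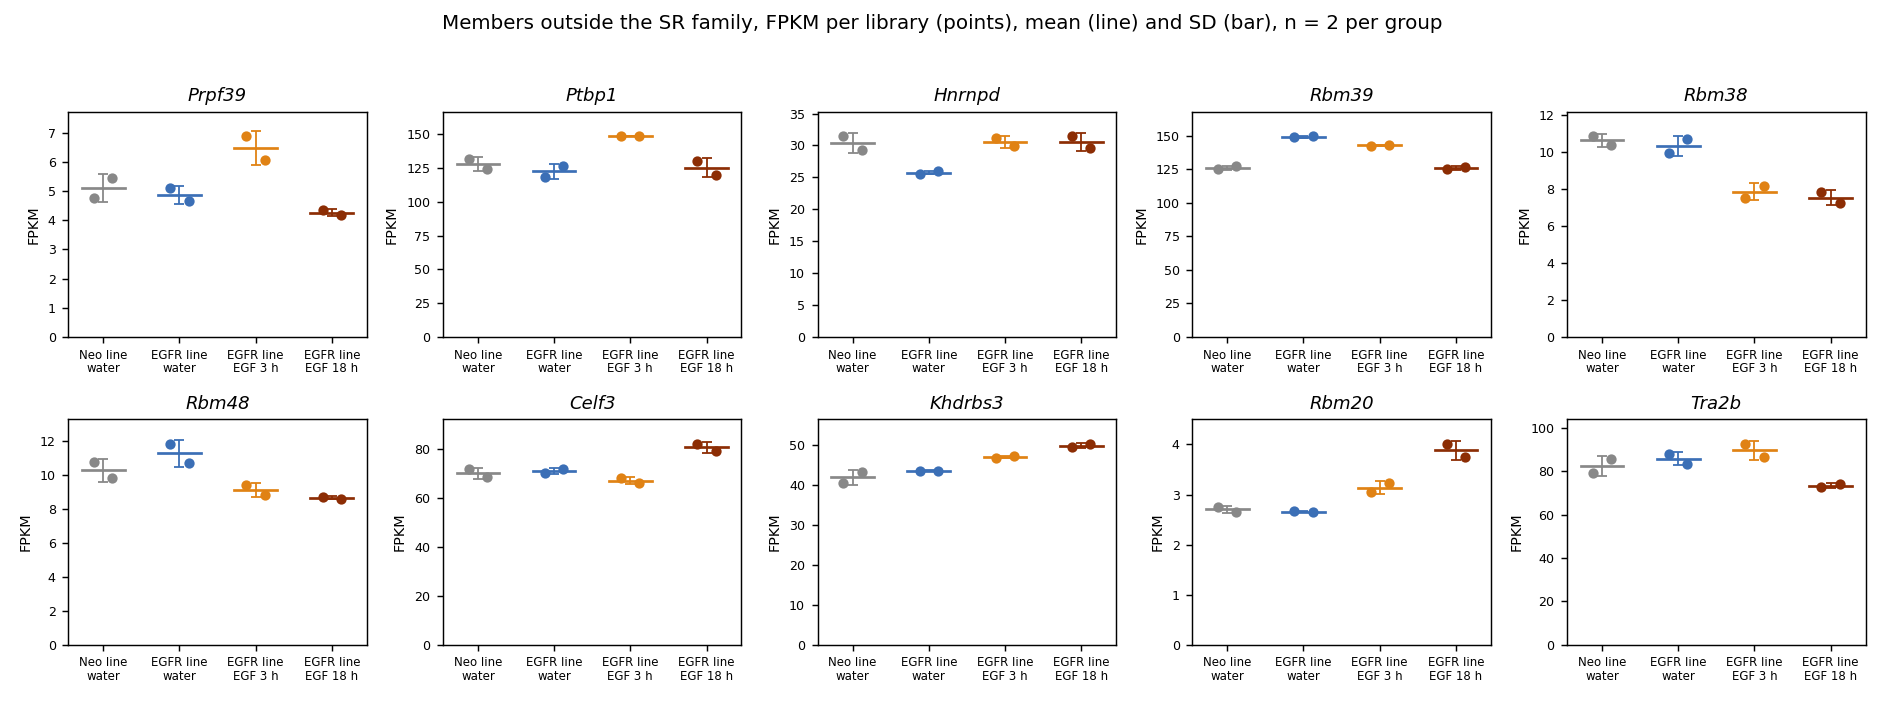
FPKM of 10 members outside the SR family (vertical axes, from 0) in the 4 groups, with a point for each library, a line at the mean and bars of 1 SD (n = 2). Prpf39 and Ptbp1 are highest at 3 h of EGF, Rbm38 and Rbm48 are low in both EGF groups, and Celf3, Khdrbs3 and Rbm20 are highest at 18 h.

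Sorted by their calls in the 3 EGF comparisons, the members fell into a few courses. The largest called course held 20 members that were lower at 18 h than in both other EGFR-line groups and not called at 3 h, among them Srsf1, Srsf3, Tra2b, Snrpg, Sf3a3, Hnrnpa1 and Hnrnpdl. In 11 members, among them Srsf2, Srsf10, Prpf39, Ptbp1 and U2af1, the 3 h level was above both water and 18 h. Srsf9 and Hnrnpd were higher than water at both times, and Rbm38, Rbm48 and Snrpd2 lower at both. No call was made in any of the 3 for 43 members, which does not show that they were unchanged. How many of all tested genes follow each course was not counted, so these numbers do not set the members apart.

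Summed over the 112 protein-coding members, the FPKM was 1.85% and 1.91% of the protein-coding sum in the Neo libraries and 1.93% and 1.92% in EGFR-line water. It was 2.08% and 2.02% at 3 h of EGF and 1.85% and 1.85% at 18 h. The 3 h libraries were above and the 18 h libraries below those in water, without overlap. The share was 2.05% ± 0.041 at 3 h and 1.85% ± 0.0021 at 18 h (SD, n = 2), a difference for which the exact two-sided permutation p of 0.333 is the smallest that 2 libraries against 2 allow. The small RNA share of the same groups was 29.1% to 31.6% and 31.5% to 32.8% of all FPKM. Small RNA genes are not part of the protein-coding sum, and any link to the result was not tested.

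**Figure D4:**
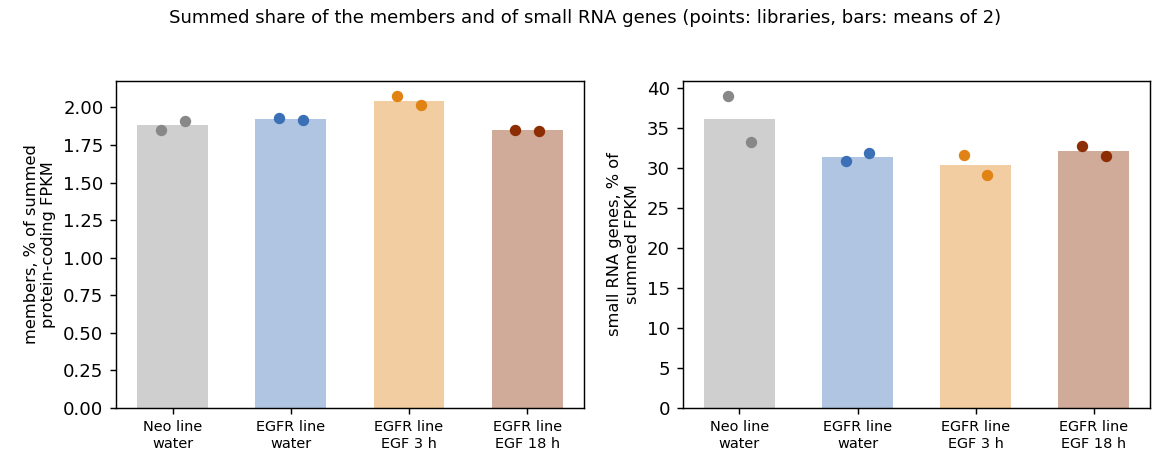
Left, summed FPKM of the 112 protein-coding members as a percentage of the summed protein-coding FPKM. Right, summed FPKM of small RNA genes as a percentage of all FPKM. Points are libraries and bars are means of 2, on axes from 0; the members' share is 2.08% and 2.02% at 3 h of EGF and 1.85% in each library at 18 h.

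Other genes of the splicing pathway, taken from lists chosen with earlier results of these data known, were compared in the same fit. Of 60 further spliceosome components, 5 were higher and 11 lower at 3 h, 0 were higher and 26 lower at 18 h, and 3 were higher and 24 lower between the times, with a median log2 change of -0.11 at 18 h. The share called was 26.7%, 43.3% and 45% in the 3 comparisons, against 31.5%, 31.9% and 33.7% of all genes. Lsm3, a subunit of the Sm-like ring that binds U6 snRNA, stood at 93.0 ± 1.47 FPKM (SD, n = 2) in water and 75.1 ± 3.42 FPKM at 18 h, lower by -0.30 on the log2 scale (limma adjusted p = 0.00138). Luc7l3, a U1-associated protein, went from 33.1 ± 0.637 FPKM in water to 40.1 ± 0.487 FPKM at 3 h (limma adjusted p = 0.00223) and back to 32.2 ± 0.616 FPKM at 18 h (against 3 h, adjusted p = 0.00135).

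Among 16 exon junction complex and SR-related genes, 3 were higher at 3 h, and 5 were lower and 1 higher at 18 h. The share called was 18.8% and 37.5%, against 31.5% and 31.9% of all genes. Set against 3 h, 6 were lower and 0 higher at 18 h. These are 37.5% against 33.7% of all genes, of which 16% were lower. Thoc1, of the mRNA export complex, followed the course of Srsf7, with 14.8 ± 0.241 FPKM (SD, n = 2) in water, 17.6 ± 0.487 FPKM at 3 h and 12.9 ± 0.0657 FPKM at 18 h (limma adjusted p = 0.00462 at 3 h and 0.00986 at 18 h). Magoh, a core subunit of the exon junction complex, fell at 18 h (limma adjusted p = 0.00162). Of 11 NMD factors, 4 were higher and 0 lower at 3 h, among them Upf2 and Smg1, and 2 were higher and 1 lower at 18 h. In either direction these are 36.4% and 27.3% of the list, against 31.5% and 31.9% of all genes. The share called higher was 36.4% at 3 h and 18.2% at 18 h, against 11.8% and 13.2% of all genes. The share called lower was 0% and 9.09%, against 19.7% and 18.7%. Of these factors 1 was higher and 1 lower between the times, or 18.2% called against 33.7% of all genes. Smg1 stood at 9.95 ± 0.395 FPKM in water and 11.7 ± 0.218 FPKM at 3 h (0.21 on the log2 scale, limma adjusted p = 0.0144).

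Of 20 snRNP assembly genes, 0 were higher and 5 lower between the times, or 25% called against 33.7% of all genes, of which 16% were lower. At 3 h, 2 were higher and 2 lower, or 20% against 31.5%. At 18 h, 1 was higher and 5 lower, or 30% against 31.9%. Smn1, the core of the SMN complex that loads Sm rings, was among the latter, at 16.8 ± 1.36 FPKM (SD, n = 2) in water and 14.0 ± 0.0719 FPKM at 18 h (limma adjusted p = 0.0481), and Gemin6, of the same complex, was the exception, at 14.1 ± 0.108 and 17.7 ± 0.264 FPKM (adjusted p = 0.000926). Of 6 genes for SR protein kinases and import, 2 were lower at 3 h, and 1 was higher and 1 lower at 18 h. That was 33.3% at each time. At 18 h against 3 h, 2 were higher and 2 lower, or 66.7% against 33.7% of all genes. Dyrk1a, a kinase of splicing factors, went from 99.6 ± 0.092 FPKM in water to 90.6 ± 0.617 FPKM at 3 h (limma adjusted p = 0.018) and 107 ± 0.358 FPKM at 18 h (against water, adjusted p = 0.048). Of 28 other splicing regulators, 1 was higher and 1 lower at 3 h, and 1 higher and 5 lower at 18 h. The share called was 7.14% and 21.4%, below that of all genes. In the comparison of the 2 times, 3 were higher and 9 lower, or 42.9% against 33.7% of all genes. By direction 10.7% were higher and 32.1% lower, against 17.7% and 16% of all genes. The lower one at 3 h was Cirbp, a cold-inducible relative of Rbm3 (-0.32 on the log2 scale, limma adjusted p = 0.00278).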

How the data were processed

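RNA was measured in 8 AtT-20 libraries. Per the submitters' processing notes, Trimmomatic 0.22, TopHat2 2.0.8, HTSeq 0.5.4 and DESeq were used with mm10; the tool that made the FPKM values is unstated. The authors deposited FPKM per locus; counts were not analysed here. Steps in the low values give an approximate depth of 50.3 to 57.1 (in units of 1e6 fragments) per library, within limits of 40 and 80 that were set after looking at those values.

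Genes at 1 FPKM or more in at least 2 libraries were kept (10874). Values were tested as log2(FPKM + 1) with limma 3.58.1 (R 4.3.3) with a variance trend, all 4 groups in 1 fit (4 residual degrees of freedom), Benjamini-Hochberg over all genes. In data simulated from these libraries 96% to 99% of 1.5-fold changes were recovered, with 3.9% to 6.25% wrong calls; in mean FPKM the called changes of the members are smaller, except that of Prpf39, which fell by 34.2% between the times. The members, families and pathway lists were chosen with earlier results of these data known.

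Named members were, by rule, the 6 largest called increases and decreases per comparison (8 for EGF against water) with libraries that did not overlap and a mean of at least 5 FPKM, a list of autoregulated, CLK, cold-inducible and neuronal members, the 3 most abundant, and those with opposite calls at the times of EGF; up to 3 called genes per pathway list could be named. Others are said to be named after their values were seen. Alternatives changed the pseudocount (0.1), the filter (none, 5 FPKM), the scaling, the groups in the fit, the variance trend, the replicate block or left out a library. Near-identical copies were sought with minimap2 2.31 (95% identity over 200 bases or more). Poison exons were read from GENCODE M21. Member promoters were also scanned for motifs and are not used here, because their windows overlap annotated exons and the scan covered only part of the members.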

Additional observations from a re-analysis of the deposited data

Results flagged for a closer look

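The effect of EGF on 26 of 41 named members differed between 3 h and 18 h by a test of the difference itself, which is the comparison of the 2 EGF groups since both effects are taken against the same water libraries (limma adjusted p below 0.05 over all genes). Of all tested genes 33.7% were called in it, and 9 of the 26 had been named for the size of their called change in this same comparison. Srsf2, Ptbp1, Prpf38b, Rbm39, Snrpg, Celf4 and Sf3a3 ranked among the largest called changes against water, which use 1 of the same EGF groups. The count was thus partly set by the choice and is no separate evidence for a difference. The difference, 18 h less 3 h on the log2 scale, was -0.49 for Srsf7, with effects of 0.24 at 3 h and -0.26 at 18 h, the only pair of opposite calls. Among the other SR genes it was -0.40 for Srsf3, -0.35 for Srsf10, -0.33 for Srsf2, -0.28 for Srsf1 and -0.20 for Srsf5. For the TRA2 and CLK genes it was -0.28 for Tra2b, -0.17 for Tra2a, -0.35 for Clk4 and -0.13 for Clk1. The hnRNP differences were -0.29 for Hnrnpdl, -0.22 for Hnrnpa1 and -0.20 for Hnrnpab. The core factors stood at -0.51 for Prpf39, -0.26 for Prpf38b, -0.26 for U2af1, -0.25 for Sf3a3, -0.14 for Sf3b1 and -0.24 for Snrpg. Among RBM genes the difference was -0.36 for Rbm12, -0.18 for Rbm39, 0.11 for Rbm10 and 0.18 for Rbm43. Ptbp1 and Celf4 stood at -0.25 and -0.27, and Celf3, at 0.26, was the largest of the 3 positive differences. The call was lost in 7 of 18 alternatives for Rbm10 (limma adjusted p = 0.0658 to 0.473), 4 for Rbm43 (0.0539 to 0.155), 5 for Clk1 (0.0551 to 0.101) and 3 for Celf4 (0.0636 to 0.105), each of them among others without EGF 18 h replicate 2. Groups of 2 libraries are too small for a search for single outlying samples.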

How the results depend on the processing

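Counts of called members depended on scaling and on single libraries more than on the pseudocount, which moved no count by 1.5 times. With 4 called members in the comparison of the lines, 2 higher and 2 lower, the higher count was 1 with only the 2 groups in the fit, without the variance trend and with the replicate block, and 5 with protein-coding genes scaled to a common sum. The lower count was 0 without the filter, under common-sum scaling, with only the 2 groups and without the trend, and 1 with the block. Calls over all genes fell as well, from 6.01% to 4.12% without the filter, 3.79% under common-sum scaling and 2.71% with only the 2 groups. For the EGF comparisons the share of all tested genes in each setting is not given. The EGF counts that follow therefore do not show a shift particular to the members. At 3 h of EGF the 17 higher became 27 under median-ratio scaling, 28 under quantile normalization and 41 with protein-coding scaling. The 9 lower became 5, 6 and 4, and 1 under common-sum scaling. At 18 h, common-sum scaling gave 5 higher and 3 lower in place of 8 and 30. Between the times the 4 higher became 1 under common-sum scaling and 2 with only the 2 groups. Leaving out a library gave 0 to 3 higher and 0 to 2 lower for the lines, 5 to 20 and 1 to 11 at 3 h, 4 to 6 and 11 to 32 at 18 h, and 1 to 5 and 22 to 45 between the times; a group then rests on 1 library assumed to vary like the others. Of the named calls, all 18 alternatives kept 0 of 4 between the lines, 3 of 18 at 3 h, 4 of 22 at 18 h and 15 of 26 between the times. The 1 reversal was Hnrnpk at 3 h, 0.091 under quantile normalization. No scaling moved the median of all genes by over 0.1. The cause of these shifts was not tested.

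Same-numbered libraries deviated together in no regular way (correlations of -0.172 to 0.31 over 6 pairs of groups). With 2 libraries a group this cannot tell whether the numbers pair the samples, and the main fit does not pair them. With the replicate block the counts of higher and lower members were 1 and 1 for the lines, 16 and 7 at 3 h, 6 and 29 at 18 h, and 6 and 39 between the times. Having 2 libraries a group, at an approximate depth, limits all values. Leaving out the 25 members with shared sequence left 13 higher and 5 lower of 88 at 3 h, 8 and 21 at 18 h and 4 and 34 between the times. Of all tested genes, 11.8% and 19.7%, 13.2% and 18.7%, and 17.7% and 16% were called higher and lower.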
